A study of Leymus chinensis with 14 samples.

Results

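The loci described here come from the leaf transcriptome of sheepgrass, and 2 of them bear by name on the CO2-fixing enzyme Rubisco. Locus g146807 has the Rubisco small chain as its protein hit. Locus g8562 is named after Rubisco activase B, the hit of 4 of its 26 transcripts. Locus g207486 is the most abundant of the whole table, and its hit carries only the rice name Os12g0274750, with no stated function. Whether this name is tied to Rubisco was not tested. Together they are 3 of 29560 loci. A locus is the sum of the assembled transcripts that share an identifier before the transcript number. The loci were chosen by database name and by mean abundance over all libraries, so their names and their overall rank are a description and not a result. By mean abundance g207486 had rank 1, g146807 rank 7 and g8562 rank 8. The mean of g207486 over the 14 libraries was 11675 units, and that of the locus next below it, g2452 for a chlorophyll a-b binding protein, was 7004.

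Rubisco is the chloroplast enzyme that fixes CO2 in the Calvin cycle. In plants it is built of large chains encoded in the plastid and small chains encoded by a nuclear gene family, and in C3 leaves it is among the most abundant proteins, with small chain transcripts among the most abundant messenger RNAs. Sugar phosphates can block its active sites, and Rubisco activase, a nuclear-encoded ATPase of the AAA+ family, removes them. Transcripts of both are known in many plants to depend on light.

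Leaves of sheepgrass (Leymus chinensis), a perennial steppe grass, came from plants 3 weeks old, raised on diluted Murashige and Skoog medium, and their RNA was sequenced in 14 libraries. The normal-light groups were a check (ck in the labels, read here as no added salt), low salt and high salt, with 3 libraries each. The low-light groups were a check with 3 libraries and high salt with 2. The labels give no salt concentration, light level or cultivar. A mark in the library names may be a number of days, but it is not explained, and no time of collection is stated. They number the libraries as replicates without naming their plants. The p-values below therefore reflect only how far these libraries differ, which may be technical.

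The deposited abundances have no named unit and behave like TPM or FPKM, with no read counts, so the depth is unknown. The complete rows sum to between 470162 and 581690 units per library. Changes were tested with limma on log2(abundance + 1) over 20567 loci that passed a filter on low values, all 3 loci described here among them, with Benjamini-Hochberg adjustment over all of these loci and a threshold of 0.05. The median log2 change of all tested loci against the normal-light check was 0.29 for high salt, 0.14 for low salt and 0.35 for low light, and was between 0.00 and 0.04 for these comparisons after median-of-ratios scaling. Changes are therefore also given after that scaling where it alters a call. In bulk leaf RNA, fewer cells of a type and less RNA per cell cannot be told apart.

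Low light without added salt gave the clearest differences. Of the 3 loci 2 fell, where 4.27% of all tested loci fell: g207486 was 3.03-fold lower than in the check and g8562 was 6.78-fold lower. All 3 had low-light libraries below every check library, as had 8.24% of all tested loci. With high salt at normal light none of the 3 passed the threshold of limma's adjusted p (0.963% of all loci were called lower). An unadjusted p under 0.05 was reached by 2 of the 3, and by 4867 of 20567 tested loci in either direction. The same number of the 3 lay below the check without overlap (6.52% of all loci). With low salt the counts were again 0 called (0.0486% of all loci were called lower) and 2 without overlap (6.0% of all loci). Again 2 had an unadjusted p under 0.05, as had 2466 of 20567 tested loci in either direction.

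The Rubisco small chain locus g146807 has 1 transcript. Its Swiss-Prot hit is the chloroplast small chain at 97.04% identity and its protein domain is that of the small chain, while its best hit in the larger Nr database is an unnamed protein filed under a bacterium, at 97.78%. In the check libraries at normal light it stood at 8965, 5618 and 5215 units in replicates 1, 2 and 3. With low salt it stood at 3593, 3869 and 1679, and with high salt at 2429, 2942 and 2128. Every salt library at normal light was thus below the lowest check library. At low light the check libraries held 2329, 4698 and 3670 units, and the high-salt libraries 2048 and 2910. Low-light values also lay below the normal-light check, but replicate 2 of the low-light check, at 4698, came close to its lowest library.

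By group mean, g146807 ran from 6599 ± 2059 in the normal-light check through 3565 ± 1188 in the low-light check, 3047 ± 1193 under low salt and 2499 ± 411 under high salt at normal light (SD, n = 3 each) to 2479 ± 609 with high salt at low light (SD, n = 2). Only the step from the normal-light check to the next group was free of overlap, and each later pair of neighbours in this order overlapped. The log2 change was -1.37 with high salt (SE 0.37, limma adjusted p = 0.060), -1.16 with low salt (SE 0.37, limma adjusted p = 0.24) and -0.90 at low light (SE 0.37, limma adjusted p = 0.12). None of these passed the threshold, and after median-of-ratios scaling the low-light value was -1.38 with a limma adjusted p of 0.069. The high-salt value lies close to the threshold: it passed with a stricter filter on low values (limma adjusted p = 0.039), without replicate 3 of the low-salt group (limma adjusted p = 0.044) and without replicate 1 of the low-light check (limma adjusted p = 0.047), and was at 0.22 without replicate 1 of the check.

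Among low-light plants, high salt left g146807 at a log2 difference of -0.49 (SE 0.41, limma adjusted p = 0.89), and among high-salt plants low light left it at -0.02 (SE 0.41, limma adjusted p = 1). The difference between the salt changes at the 2 light levels, the interaction, was 0.88 (SE 0.56, limma adjusted p = 0.48). The standard errors in these comparisons rest on 2 high-salt libraries at low light, and a p above the threshold does not show that the level stayed the same.

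**Figure D1:**
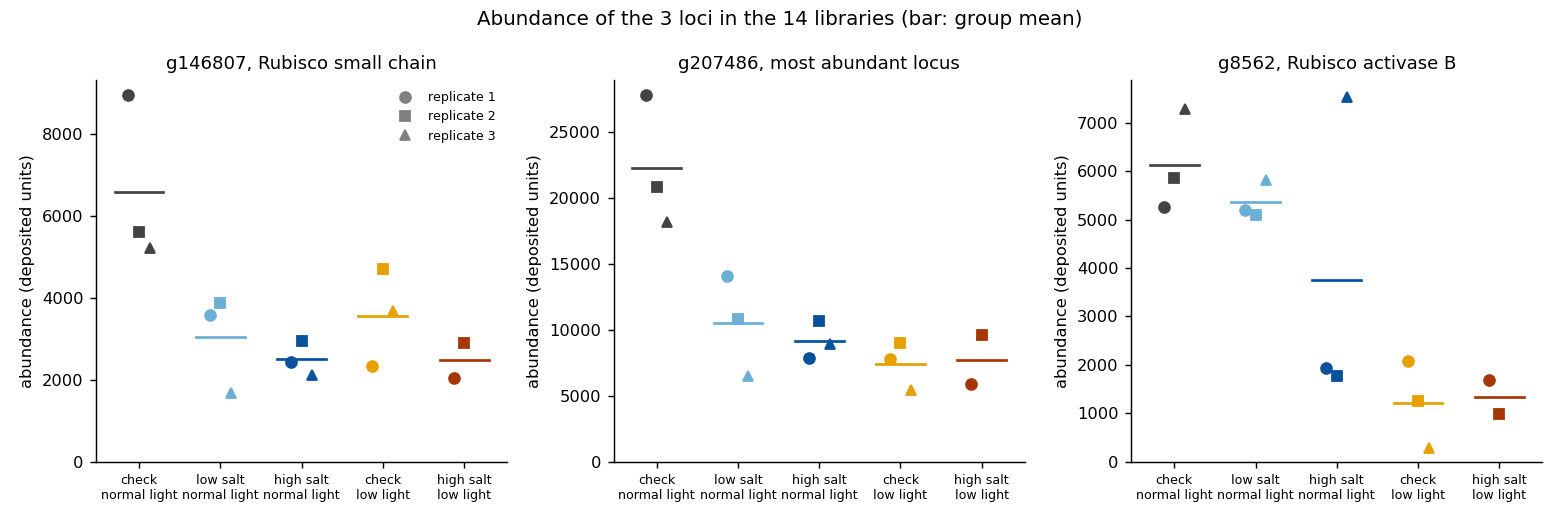
Abundance of g146807, g207486 and g8562 in each of the 14 libraries, in deposited units on linear axes that start at 0. Symbols mark replicate 1, 2 and 3 and bars the group means; in the first 2 panels the check at normal light lies above every other library, whereas g8562 stays at 5084 to 5812 with low salt and at 7525 in 1 high-salt library.

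Besides g146807, 11 other loci are named as the Rubisco small chain, and all 12 passed the filter. The 11 form a graded series, from g86490 at 4546 ± 832 to g147472 at 477 ± 162 in the normal-light check (SD, n = 3). Together the 12 small chain loci summed to 30341 ± 6256 units in the normal-light check, 15171 ± 2157 in the low-light check, 13131 ± 5039 with low salt and 12712 ± 2374 with high salt (SD, n = 3 each), and to 12457 ± 3614 with high salt at low light (SD, n = 2). The normal-light check, with 25336 units in its lowest library, lay above the highest library of any other group, at 17247. Near-identical copies can share reads, so values of single small chain loci are less sure than this sum.

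Of the 11 loci other than g146807, 3 fell at low light, where 4.27% of all loci fell: g196503, named small chain PW9 (log2 change -1.48, limma adjusted p = 0.018), g87757 (-1.18, 0.028) and g98719 (-1.06, 0.045). After median-of-ratios scaling the count was 9 of 11, where 7.05% of all loci were called lower. With high salt at normal light, where 0.963% of all loci fell, 1 of 11 fell, g87757 (-1.24, limma adjusted p = 0.049), and 3 did so after scaling, where 2.0% of all loci were called lower. With low salt limma called none of 11, while 10 had an unadjusted p under 0.05, as had 2466 of 20567 tested loci in either direction. In each of these 3 comparisons 10 of the 11 lay below the check without overlap, as did 6.52% of all loci with high salt, 6.0% with low salt and 8.24% at low light, and the exception was g147472, the least abundant of the family. The median log2 change of the 11, relative to that of all loci, was -1.52 with high salt, -1.50 with low salt and -1.36 at low light. At low light, high salt called none of the 11 and their median relative to all loci was -0.30. None of them had an unadjusted p under 0.05, which 1700 of 20567 tested loci had in either direction. These comparisons share the check libraries, so their likeness to each other is not given as a result.

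The share of g146807 in the small chain sum was 21.5% ± 2.2 in the normal-light check, 23.2% ± 1.9 with low salt, 19.7% ± 0.69 with high salt and 23.1% ± 4.7 in the low-light check (SD, n = 3 each), and 20.03% ± 0.92 with high salt at low light (SD, n = 2). The low-salt libraries, at 21.5% to 25.2%, lay above both high-salt groups, which ran from 19.1% to 20.5% at normal light and from 19.4% to 20.7% at low light, and all other pairs of groups overlapped. The widest range, 18.0% to 27.2%, was in the low-light check, and no test was made of this share. The 5 loci whose level followed g146807 most closely over the 14 libraries, among 9440 loci with a mean of at least 5, were all small chain loci: g150123 (Pearson r = 0.97 on the log2 scale), g86490 (0.96), g150124, g181187 and g181188. These correlations describe 14 libraries that share their groups and their scaling, and copies of a family can share reads.

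The large chain, the partner of the small chain in the enzyme, is represented by locus g16, of whose 50 transcripts 6 carry the large chain name. These 6 summed to 406, 217 and 131 units in the check libraries at normal light, to 224, 282 and 45.4 with low salt and to 98.9, 539 and 88.3 with high salt. At low light the sums were 173, 113 and 300 in the check and 95.8 and 127 with high salt. Libraries of 1 group differed widely, and every group but high salt at low light overlapped with the normal-light check. None of the 6 comparisons called the whole locus of 50 transcripts (for low light the log2 change of g16 was -0.12, limma adjusted p = 0.94). The sum of the 6 large chain transcripts alone was not tested. The sources used here do not say whether the library preparation kept plastid transcripts in proportion.

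**Figure D2:**
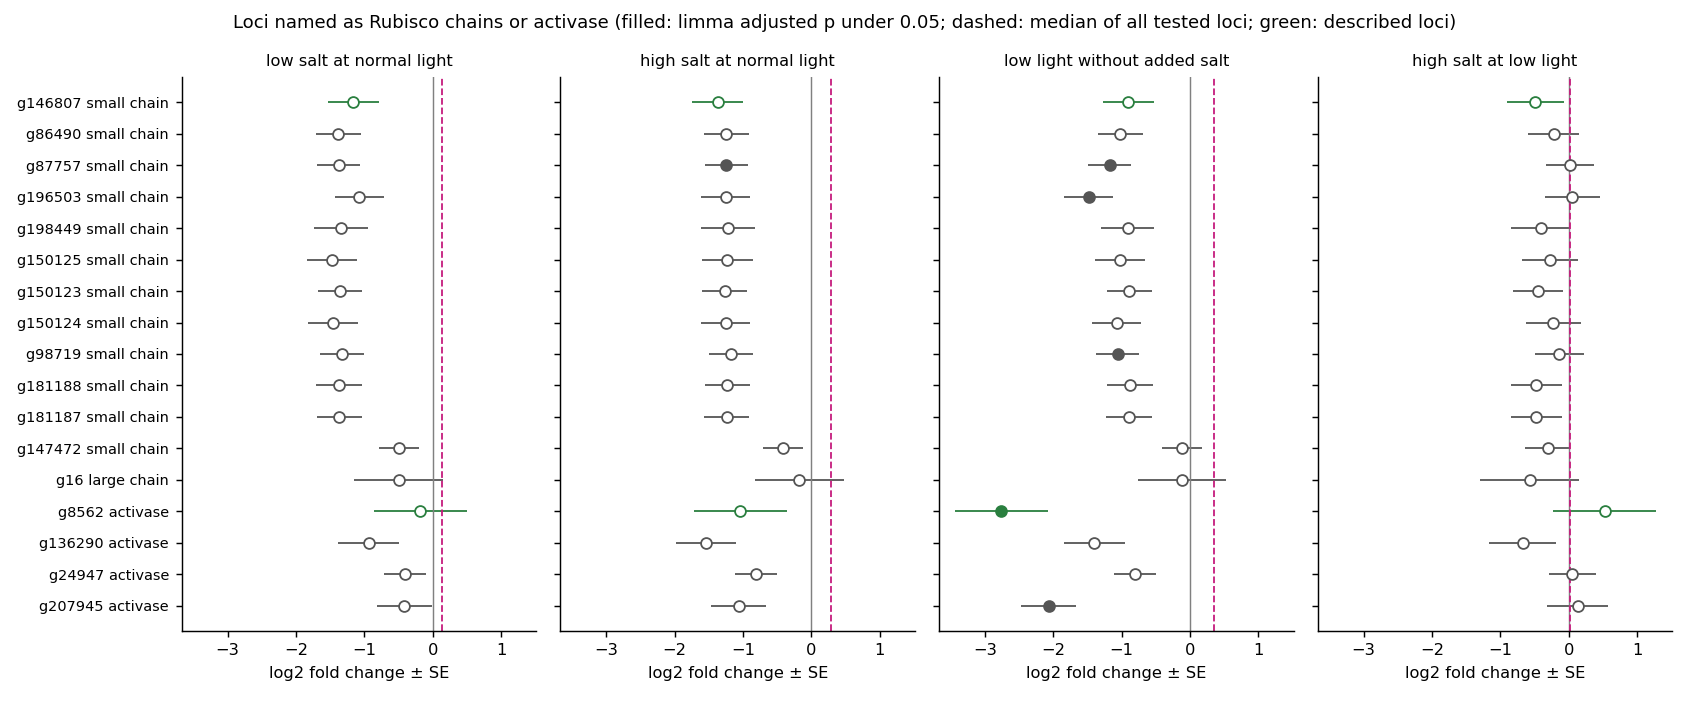
Log2 fold change (± SE) of the 17 loci named as a Rubisco small chain, large chain or activase in 4 comparisons, on a common axis, with filled points for a limma adjusted p under 0.05 and a dashed line at the median of all tested loci. All 17 points lie left of 0 in the 3 comparisons with the normal-light check, and g8562 is farthest left at low light, with the widest error of the activase loci.

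The most abundant locus, g207486, also has 1 transcript. Its only annotation is the Nr hit Os12g0274750 of rice, a partial protein of no stated function, at 70.49% identity, with no Swiss-Prot hit and no protein domain, and no role is given to it here. In the check libraries at normal light it stood at 27845, 20813 and 18205 units, which is 4.79%, 3.86% and 3.29% of the summed abundance of the rows used here. The low-salt libraries held 14116, 10850 and 6490 units. High salt at normal light gave 7829, 10702 and 8892. Every salt library was below the lowest check library, and the low-salt and high-salt libraries overlapped. At low light the check held 7761, 9036 and 5412 units, and high salt 5916 and 9582. All 5 low-light libraries were below the normal-light check and overlapped with the high-salt libraries at normal light.

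It was the most abundant locus in 12 libraries. In replicate 3 of the low-light check and replicate 2 of high salt at low light it had rank 2. The order of its group means was 22287 ± 4986 in the normal-light check, 10485 ± 3826 with low salt, 9141 ± 1453 with high salt (SD, n = 3 each), 7749 ± 2593 with high salt at low light (SD, n = 2) and 7403 ± 1838 in the low-light check (SD, n = 3). As for g146807, only the first of these steps was free of overlap.

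At low light g207486 fell by 1.60 on the log2 scale (SE 0.33, limma adjusted p = 0.0097), lower in 3 of 3 libraries, and by 2.08 after median-of-ratios scaling (limma adjusted p = 0.0080). Without replicate 1 of the normal-light check, its highest library, the limma adjusted p was 0.0505, just above the threshold. The log2 change was -1.27 with high salt (SE 0.33, limma adjusted p = 0.055) and -1.14 with low salt (SE 0.33, limma adjusted p = 0.21). The high-salt value passed with a stricter filter (limma adjusted p = 0.037) and without replicate 3 of the low-salt group (0.045), and was at 0.20 without replicate 1 of the check. Within the low-light plants high salt gave a log2 difference of 0.06 (SE 0.37, limma adjusted p = 1), and within the high-salt plants low light gave -0.27 (SE 0.37, limma adjusted p = 0.86). For high salt at low light, for low light among high-salt plants and for the interaction limma called 0 of the 3 loci, against 0.574%, 0.656% and 0.209% of all loci. An unadjusted p under 0.05 was reached once, by g207486 in the interaction (1.33, SE 0.50, limma adjusted p = 0.26), where 2985 of 20567 tested loci had one.

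The locus that followed g207486 most closely was the small chain locus g196503 (Pearson r = 0.98 over 14 libraries, log2 scale, 9440 loci compared). It stood at 4276, 3249 and 2705 units in the normal-light check, at 2294, 1656 and 1060 with low salt and at 1307, 1588 and 1331 with high salt. In the low-light check it stood at 1617, 1377 and 772. In both loci the check and the low-salt group had their highest value in replicate 1 and their lowest in replicate 3, and the low-light check had its lowest in replicate 3. The next 4 loci, g169029, g169030, g169024 and g169009, have no name in the table (r = 0.98 to 0.97). Each of them fell at low light (log2 change -1.49 to -1.43, limma adjusted p = 0.0054 to 0.0094), where 4.27% of all loci fell. They were picked by their correlation with g207486 over these same libraries, so this fall comes largely with the choice and is not separate evidence. With g146807 the correlation of g207486 was 0.82.

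A further 6 loci, chosen after their values were seen, have a hit of the same rice series of names. Locus g201006 shares the name Os12g0274750 and fell from 1224 ± 70.6 units in the normal-light check to 358 ± 118 in the low-light check (SD, n = 3 each, log2 change -1.82, limma adjusted p = 0.0030). Another 5 loci are named Os12g0292301. Of these g97558, the most abundant, fell at low light (log2 change -1.69, limma adjusted p = 0.018), where 4.27% of all loci fell. At low light g158370 overlapped with the check (-0.54, limma adjusted p = 0.52). Nor were g158371 (-0.65, limma adjusted p = 0.086), g165089 (-0.80, 0.10) and g165088 (-0.46, 0.28) called there. With high salt only g158371 of these loci fell (-1.04, limma adjusted p = 0.041), where 0.963% of all loci fell. After median-of-ratios scaling g158371 (-1.13, limma adjusted p = 0.030) and g165089 (-1.28, 0.0499) were also called lower at low light, where 7.05% of all loci were. With high salt g165088 was then called lower too (-1.43, limma adjusted p = 0.043), where 2.0% of all loci were. After scaling g158370 was still called in neither comparison. The largest of these loci, g97558, stood at 2812 ± 143 units in the normal-light check (SD, n = 3), well below g207486.

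Other loci near the top of the table did not share the pattern of g207486 in every comparison. The next 5 in order of mean abundance were the chlorophyll a-b binding protein loci g2452, g2545 and g16238, g8225, named only as unknown from maize, and g80301, for subunit IV of photosystem I. At low light, where 4.27% of all loci fell, g8225 fell (log2 change -1.97, limma adjusted p = 0.0031), as did g2545 (-0.99, 0.049) and g16238 (-1.15, 0.048). Not called there were g2452, at -0.30 (limma adjusted p = 0.70), and g80301, at -0.67 (0.18). With low salt their log2 changes lay between -0.30 and 0.05, all 5 overlapped with the check, and g207486, at -1.14, did not.

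The activase locus g8562 sums 26 transcripts. In the check libraries at normal light it stood at 5250, 5856 and 7277 units. With low salt it stood at 5194, 5084 and 5812, within or just under the range of the check. High salt at normal light gave 1932, 1776 and 7525. Replicates 1 and 2 were far below every check library and replicate 3 was above all of them. At low light the check libraries held 2082, 1255 and 274 units, and the high-salt libraries 1692 and 979. All 5 low-light libraries lay below every check and low-salt library, and replicate 3 of the low-light check, at 274, was the lowest of the 14. In that library g8562 had rank 256 among all loci, whereas it had rank 2 in replicate 3 of the check and replicate 3 of high salt at normal light.

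Group means of g8562 were 6128 ± 1041 in the normal-light check, 5364 ± 393 with low salt, 3745 ± 3275 with high salt (SD, n = 3 each), 1336 ± 504 with high salt at low light (SD, n = 2) and 1204 ± 905 in the low-light check (SD, n = 3). Neighbours in this order overlapped, with 1 exception. Between high salt at normal light and high salt at low light the ranges came close without overlap, at 1776 and 1692 units, and g8562 was the only 1 of the 3 loci free of overlap there (9.77% of all loci lay lower without overlap).

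At low light g8562 fell, with a log2 change of -2.76 (SE 0.68, limma adjusted p = 0.020), in 3 of 3 libraries, and of -3.24 after median-of-ratios scaling (limma adjusted p = 0.011). Its size depended on replicate 3 of the low-light check, without which the log2 change was -1.91 (limma adjusted p = 0.048). The call was lost without replicate 1 or replicate 3 of the normal-light check (limma adjusted p = 0.059 and 0.068) and when the 6 libraries of this comparison alone were fitted (0.082). With high salt at normal light the log2 change was -1.04 (SE 0.68, limma adjusted p = 0.38), and without high-salt replicate 3 it was -1.71 (limma adjusted p = 0.14). For low salt it was -0.18 (SE 0.68, limma adjusted p = 0.96). High salt at low light gave 0.52 (SE 0.76, limma adjusted p = 0.96), low light among high-salt plants -1.20 (SE 0.76, limma adjusted p = 0.63) and the interaction 1.56 (SE 1.02, limma adjusted p = 0.49).

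By transcript, 4 of the 26 carry the name activase B (g8562_i19, g8562_i20, g8562_i21 and g8562_i25), at 98.76% identity to a wheat relative in Nr and 98.45% in Swiss-Prot, with the ATPase domain of the AAA family. Another 21 have only an unnamed protein filed under a bacterium as their hit, at 64.05%, and 1, g8562_i9, is named pirin-like protein. The 4 activase-named transcripts summed to 1247, 1370 and 2187 units in the normal-light check, 1289, 1545 and 1592 with low salt and 485, 559 and 1853 with high salt. At low light they summed to 478, 303 and 75.8 in the check and 465 and 224 with high salt. As in the whole locus, replicate 3 was the high library under high salt and the low one of the low-light check.

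The activase-named share of the locus was 22.9% to 31.5% over the 14 libraries and overlapped between all groups. All 4 activase-named transcripts fell at low light (log2 change -3.11 to -2.58, limma adjusted p over all transcripts = 0.016 to 0.018), and so did all 21 with the unnamed hit (-3.34 to -2.45, 0.012 to 0.037), where 4.46% of 48562 tested transcripts fell. These transcripts share a locus and may share sequence and reads, so they are not separate evidence. Of 325 transcript pairs, 4 were within 5% of each other in every library. Tested from the 4 activase-named transcripts alone, the low-light change was -2.79 (limma adjusted p = 0.015). In the other 5 comparisons none of the 26 was called, against 2.61% of all transcripts for high salt, 0.0597% for low salt, 0.305% for high salt at low light, 0.381% for low light among high-salt plants and 0.138% for the interaction.

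The pirin-like transcript did not move with the rest. Pirins are small proteins of the cupin fold. It stood at 1.93, 2.28 and 1.05 units in the normal-light check and at 1.00, 2.11 and 1.55 in the low-light check (log2 change -0.11, limma adjusted p = 0.80). With high salt at normal light it stood at 4.54, 3.88 and 4.91, above every check library (1.01, limma adjusted p = 0.058). It made up at most 0.564% of the locus in any library, so the locus sum is that of the other 25 transcripts.

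**Figure D3:**
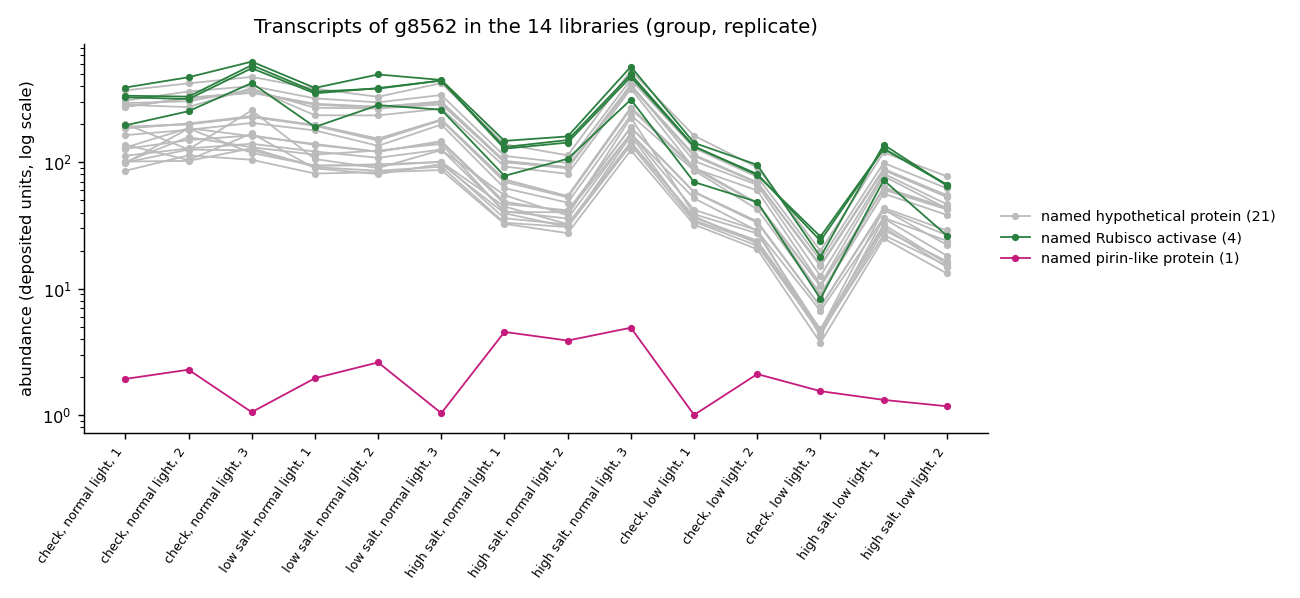
Abundance of the 26 transcripts of g8562 in the 14 libraries, on a log axis, coloured by database name, with a line per transcript. The 4 activase-named and the 21 unnamed transcripts move in parallel, with low values in replicate 3 of the low-light check and high ones in replicate 3 of high salt at normal light, and the pirin-like transcript stays between 1.00 and 4.91.

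Of the other 3 activase loci 1 fell at low light, where 4.27% of all loci fell: g207945, named a partial activase of flax, at 14.03, 17.7 and 21.6 units in the normal-light check and 3.13, 3.58 and 3.56 in the low-light check (log2 change -2.07, limma adjusted p = 0.0070). Activase A, g136290, stood at 726, 797 and 1170 in the normal-light check and 359, 432 and 236 in the low-light check (-1.40, limma adjusted p = 0.052). The locus named activase 2, g24947, was at -0.81 (limma adjusted p = 0.094). After median-of-ratios scaling all 4 activase loci were called lower at low light, where 7.05% of all loci were. Replicate 3 of high salt, where g8562 was highest, held 300 units of g136290 against 188 and 486 in replicates 1 and 2, so the high value there was not shared by activase A. Over the 14 libraries g8562 correlated at 0.57 with g136290, 0.80 with g24947 and 0.74 with g207945 (Pearson r, log2 scale). With low salt limma called none of the 4 activase loci, and none had an unadjusted p under 0.05, which 2466 of 20567 tested loci had in either direction.

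Ratios taken within a library do not depend on how libraries are scaled. The ratio of g146807 to g207486 was 0.32, 0.27 and 0.29 in the normal-light check and stayed between 0.24 and 0.36 in every library except 2 of the low-light check, where it was 0.52 and 0.68 (replicates 2 and 3). The ratio of g8562 to g146807 was 0.59, 1.04 and 1.40 in the normal-light check. It reached 3.46 in replicate 3 of low salt and 3.54 in replicate 3 of high salt at normal light. In the low-light check it was 0.89, 0.27 and 0.075, and with high salt at low light 0.83 and 0.34. Low-light groups overlapped with the normal-light check in this ratio through their replicates 1, and no test was made of it.

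**Figure D4:**
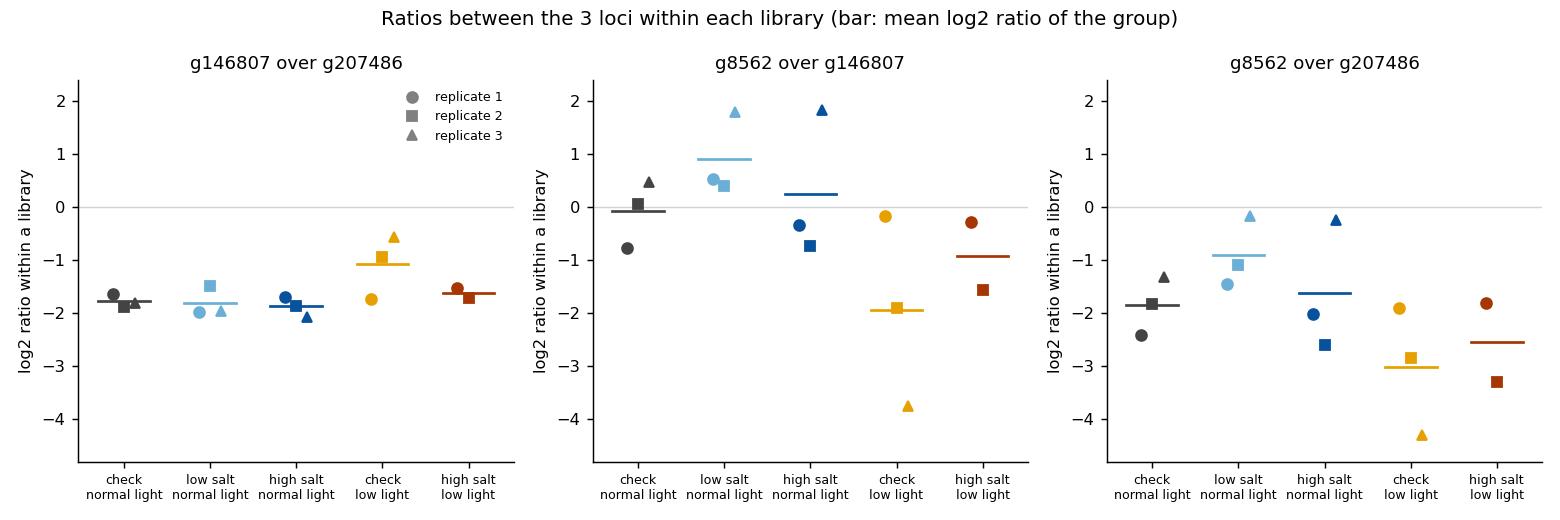
Log2 ratios between the 3 loci within each library, on a common axis, with bars at the group mean of the log2 ratio and symbols for the replicates. The ratio of g146807 to g207486 has a narrow spread outside 2 libraries of the low-light check, and both ratios with g8562 spread widely, from -4.30 to 1.82 on the log2 scale.

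The 5 loci that followed g8562 most closely over the 14 libraries were not Rubisco loci. The nearest was g1444, named mitochondrial glycine dehydrogenase (Pearson r = 0.98, log2 scale, 9440 loci compared), an enzyme that decarboxylates glycine in photorespiration, the pathway that recycles the product of Rubisco's oxygenase reaction. It stood at 2562, 3164 and 3084 units in the normal-light check, 1095, 1198 and 2630 with high salt and 1104, 771 and 323 in the low-light check. Within the high-salt group at normal light it too was highest in replicate 3, though below replicates 2 and 3 of the check, and its lowest library was likewise replicate 3 of the low-light check. At low light g1444 fell by 2.17 on the log2 scale (SE 0.43, limma adjusted p = 0.0077). The others were g27026, named prolycopene isomerase, which acts in carotenoid synthesis (r = 0.94), g26457, named cytochrome P450 81D11, g129316, named mitochondrial serine hydroxymethyltransferase, which works beside the glycine decarboxylase (r = 0.94), and g21749, of unknown function. All of them fell at low light (log2 change -2.36 to -1.27, limma adjusted p = 0.0020 to 0.019), where 4.27% of all loci fell. All 5 were picked by their correlation with g8562 over these same libraries. Their fall at low light thus comes largely with the choice and is not separate evidence. The correlation of g8562 was 0.59 with g207486 and 0.14 with g146807.

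Loci for Rubisco assembly and folding and for the rest of the Calvin cycle were set beside the 3 loci. Of 12 tested loci for assembly and folding 5 rose at low light, where 10.7% of all loci rose, and after median-of-ratios scaling 1 did, where 3.53% of all loci rose. The 5 most abundant of the list were the 5 that rose: the 20 kDa chaperonin loci g16769, g2316 and g27700, from the cofactor of the plastid chaperonin, g1572, for Rubisco accumulation factor 1, which helps large chains assemble, and g19029, for chaperonin 60 beta 1, which folds them. For g19029 the level rose from 25.4 ± 7.1 to 77.8 ± 11.8 units (SD, n = 3 each, log2 change 1.61, limma adjusted p = 0.0052), and it alone of the 5 was also called after scaling (1.14, 0.040). The median of the 12 at low light relative to that of all loci was 0.80, and that of the 11 small chain loci other than g146807 was -1.36 on the same scale.

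Of 22 tested loci for other Calvin cycle proteins 6 fell at low light and none rose, where 4.27% of all loci fell and 10.7% rose. After median-of-ratios scaling 8 were called lower, where 7.05% of all loci were. Phosphoribulokinase, g24751, which makes the sugar bisphosphate that Rubisco uses, fell from 2955 ± 174 units in the normal-light check to 974 ± 511 (SD, n = 3 each, log2 change -1.73, limma adjusted p = 0.0068) and, with high salt, to 1186 ± 279 (-1.34, 0.047). The plastid aldolase g21441 fell at low light as well (-1.96, limma adjusted p = 0.0043). Values for the other named members at low light were 0.39 for g80918, named CP12-1 (limma adjusted p = 0.49), -1.69 for g92909, named CP12-2 (0.16), and -0.23 for phosphoglycerate kinase, g20124 (0.68). CP12 proteins bind phosphoribulokinase and glyceraldehyde-3-phosphate dehydrogenase and hold them inactive in the dark. With high salt 1 of the 22 rose and 1, g24751, fell, where 2.98% of all loci rose and 0.963% fell, and after scaling 4 were called lower, where 2.0% of all loci were.

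The labelled tissue was checked with marker loci. All 87 loci named for chlorophyll a-b binding proteins or photosystem subunits had a value above 0 in some library, and together they made up 7.22% to 12.9% of the summed abundance of the rows used in each library. Their summed level was 55604 to 73726 units in the normal-light check, 47400 to 67839 under low salt, 36951 to 66024 under high salt, 36374 to 46073 in the low-light check and 37293 to 65133 with high salt at low light. At low light 25 of 73 tested fell, where 4.27% of all loci fell (30 of 73 after median-of-ratios scaling, where 7.05% did), beside g207486 and g8562, and their part in those results was not tested. Of 4 loci that mark senescing leaf, none was called in any of the 6 comparisons. In high salt at low light, in low light among high-salt plants and in the interaction 1 had an unadjusted p under 0.05. Of 20567 tested loci 1700, 2141 and 2985 had one there. The sum of the 4 was 35.5 to 53.0 units in the normal-light check and 52.3 to 126 in the low-light check. No locus was named for a casparian strip membrane protein, the root marker, so root RNA could not be checked.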

How the data were processed

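RNA from leaves was sequenced in 14 libraries, grouped by their titles. In the table the authors deposited, each row is an assembled transcript with a signal per library and protein database hits. The unit is not named, and the values resemble TPM or FPKM. The submitters' processing notes list HISAT2 2.0, StringTie 1.3.0, Bowtie 0.12.2 and build mm8 (mouse), without saying what each was used for. The table stops at 65536 lines, its format's row limit. Genes beyond it are not analysed here, and 4 broken lines and the 3 loci at its edges were left out. The remaining 65514 transcripts were summed to 29560 loci, named after their most abundant annotated transcript, with Swiss-Prot names first. Such names are hits in other species and do not prove function.

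Loci with at least 1 in at least 2 libraries (20567) were fitted on log2(value + 1) by limma 3.58.1 under R 4.3.3 (eBayes with trend and robust), as 5 group means over 14 libraries, for 6 comparisons. The deposited values are not whole numbers, so no count test was used. Fold changes on this scale understate those of scarce transcripts. The script was tested on simulated data. Replicates correlated at 0.846 to 0.953 across loci. Ranges are called free of overlap where every library of 1 group lies below every library of the other.

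The loci and lists were chosen with earlier results of these data known. Named besides the 3 loci are all other Rubisco loci with a mean of at least 5, the 5 most abundant loci of each of 2 lists, the 5 loci most correlated with each of the 3, and the 5 loci next in mean abundance to g207486. Loci with a hit of the same rice series of names as g207486 were added after their values were seen. Other settings tried were scaling by median of ratios or by library totals, no filter or a stricter one, a pseudocount of 0.1, fitting the compared groups alone, taking a locus by its most abundant transcript, blocking by replicate number, and omitting each library in turn. Summing the activase-named transcripts of g8562 alone was chosen after seeing the data. Tables were handled with pandas 2.3.3 and drawn with matplotlib 3.10.9 in Python 3.11.15.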

Additional observations from a re-analysis of the deposited data

How the results depend on the processing

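Of the values of the 3 loci in the 6 comparisons, 240 kept their direction and their side of the threshold when 1 library was left out, 6 turned, 3 passed the threshold and 3 lost it; over the other settings the numbers were 146, 1, 2 and 1. The cause of these shifts was not tested. With a stricter filter (a mean of at least 5, which tests fewer loci) the high-salt changes of g146807 (-1.37) and g207486 (-1.27) passed, and with the groups compared alone, which leaves fewer libraries, the low-light change of g8562 (-2.76) did not. Leaving out each library gave, for high salt at normal light, -1.52 to -1.13 (g146807) and -1.41 to -1.10 (g207486); for low light, -1.76 to -1.39 (g207486) and -3.37 to -1.91 (g8562); for low light among high-salt plants, -0.27 to 0.23 (g146807) and -0.62 to 0.080 (g207486); and for high salt at low light, -0.29 to 0.40 (g207486) and -0.33 to 1.13 (g8562).

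Counts of called loci over the whole table moved more. As deposited they were 811 for high salt, 14 for low salt, 3074 for low light, 118 for high salt at low light, 135 for low light among high-salt plants and 43 for the interaction. Leaving out each library gave 16 to 1102, 2 to 209, 1164 to 3167, 58 to 163, 43 to 289 and 23 to 157. In the same order, without a filter high salt had 366, and the last 3 had 259, 323 and 132. The stricter filter gave 3 for low salt and 2, 3 and 0 for the last 3. A pseudocount of 0.1 gave 69, 58 and 9 for the last 3. The groups compared alone gave 130, 993, 0 and 4 for high salt, low light, high salt at low light and low light among high-salt plants. Median-of-ratios scaling gave 39 for low salt and library totals 1279 for high salt. Median-of-ratios scaling turned the balance of directions for high salt and for low light, and library totals did not: high salt had 613 higher and 198 lower as deposited, 153 and 412 after median-of-ratios scaling and 1113 and 166 with library totals; low light had 2196 and 878, 727 and 1450, and 3203 and 742. The interaction kept its balance (36 and 7 as deposited; median-of-ratios scaling gave 52 and 3).

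Replicate numbers did not pair the libraries: of 26 pairs with the same number in different groups, 1 had deviations correlated above 0.1 (-0.17 to 0.15). With the replicate block g207486 turned to -0.11 for high salt at low light, the block changed no other call of the 3 loci, and the counts were 408 for high salt, 22 for low salt, 76 for high salt at low light, 58 for low light among high-salt plants and 23 for the interaction. Depth is unknown, and 2 or 3 libraries a group limit every comparison.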
